A study of Mus musculus with 21 samples.

Results

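The 37 genes of mouse mitochondrial DNA were followed through T cells taken 7 days after myocardial infarction. They were chosen as every row of the count table whose symbol starts with mt-, 37 of 49510 genes, in all 21 libraries. By class they are 13 protein-coding genes, 2 ribosomal RNA (rRNA) genes and 22 transfer RNA (tRNA) genes. All samples came from Foxp3-GFP mice, aged 8 weeks, in which a fluorescent protein marks cells that express Foxp3, the master gene of regulatory T cells (Tregs). The 7 groups of 3 libraries are Tregs of the injured heart, Tregs of the mediastinal lymph nodes (MLN), which drain the heart, Tregs of lymph nodes that do not drain it (NDLN), Tregs of the spleen, and conventional T cells (Tconvs) of heart, NDLN and spleen. Every group came from an infarcted animal, so no uninjured heart is part of the comparisons. Cells were sorted by magnetic beads and by flow cytometry, and libraries were prepared with a SMARTer Ultra Low Input kit. The labels do not say that the 3 libraries of a group are separate animals, so each p-value measures the spread between libraries, which may be technical.

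Mitochondrial DNA is a small circle that is copied into long RNAs from both strands, and these are cut into mRNAs, rRNAs and tRNAs, often at the tRNAs that lie between the genes. Its mRNAs encode core subunits of respiratory complexes I, III and IV and of ATP synthase, its rRNAs build the mitochondrial ribosome, and its tRNAs serve that ribosome alone. All other subunits, and all enzymes that copy and read the circle, are encoded in the nucleus. Tregs are known for their reliance on oxidative metabolism, and in mice a Treg needs complex III to keep its suppressive function.

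The genes lie edge to edge, and 12 protein genes are read from the plus strand while mt-Nd6 is read from the minus strand. The strand setting of the counting is not given in the sources used here. Reads from the opposite strand over mt-Nd6 and over the 8 minus-strand tRNA genes therefore cannot be told apart from reads of these genes. The sequences that matter most for reading the counts are printed from GENCODE M21 on GRCm38, 5′ to 3′. The mt-Nd6 gene (chrM:13552-14070, minus strand), which carries the main result in Tregs, shares 14 bases with the end of mt-Nd5 (chrM:11742-13565, plus strand), and a read on these bases fits either gene. The plus strand at chrM:13532-13585 has the shared bases in capitals.
mt-Nd5 and mt-Nd6: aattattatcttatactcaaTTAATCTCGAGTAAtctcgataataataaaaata
The ATP synthase genes mt-Atp8 (chrM:7766-7969) and mt-Atp6 (chrM:7927-8607) share 43 bases, in capitals in the plus strand at chrM:7907-7989.
mt-Atp8 and mt-Atp6: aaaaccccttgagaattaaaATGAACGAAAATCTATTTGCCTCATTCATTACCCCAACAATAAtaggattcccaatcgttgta
A block of chromosome 1 holds copies of several mitochondrial genes. Over the first 60 bases of mt-Co2 (chrM:7013-7072, plus strand) the copy Gm28661 (chr1:24615506-24615565, minus strand) has the same letters, so neither line has capitals and a read from here fits both genes.
mt-Co2: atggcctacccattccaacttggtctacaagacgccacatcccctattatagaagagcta
Gm28661: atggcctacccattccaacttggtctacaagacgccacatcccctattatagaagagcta
An older copy of mt-Co1 on chromosome 2, Gm13340, can be told from the gene. At chrM:5993-6053 (plus strand) and chr2:22588922-22588982 (minus strand) they differ at 4 bases, shown in capitals.
mt-Co1: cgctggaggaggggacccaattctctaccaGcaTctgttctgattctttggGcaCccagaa
Gm13340: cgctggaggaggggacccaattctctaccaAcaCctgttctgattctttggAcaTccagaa
Of the tRNA genes, mt-Tp (chrM:15356-15422, minus strand), the tRNA of proline, had reads in every library, and mt-Tn (chrM:5089-5159, minus strand), the tRNA of asparagine, had none in 5 of them. They are shown whole, with no capitals.
mt-Tp: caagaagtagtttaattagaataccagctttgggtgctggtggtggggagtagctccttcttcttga
mt-Tn: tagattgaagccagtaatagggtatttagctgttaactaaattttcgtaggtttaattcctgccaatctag

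The libraries hold 14515387 to 28323649 counts and form sets that do not match the groups. Of 234 genes outside mitochondrial DNA that were off in some libraries (at or under 0.5 CPM, counts of a gene scaled to a common library total) and on in the others (at or above 5 CPM), 26 divided the libraries the same way, against 3 for the next most frequent division. The smaller set holds heart Treg 1, heart Tconv 1 and 2, and MLN Treg 1 and 2 (5 libraries), and the other 16 form the larger set, which includes every NDLN and spleen library. The labels name no batch. The labelled cell types were present: all 6 T cell markers had counts in every library, and the 4 Treg markers summed to 1324 to 2949 CPM in Tregs and 39.8 to 297 CPM in Tconvs. Fibroblast markers (6 genes) summed to 81.4 to 379 CPM in heart Tregs and 1.44 to 171 CPM in heart Tconvs, against 0 to 5.18 CPM in the other groups. Heart muscle is rich in mitochondrial RNA. The 10 cardiomyocyte markers summed to 7.53 to 43.1 CPM in heart libraries and 1.66 to 142 CPM in the others, with 4 to 9 of them at 0 in each library. The sums outside heart were mostly Ttn, except in NDLN Tconv 1, with 10.7 CPM of Ttn and 11.3 CPM of Pln. Actc1 reached 15.6 CPM in heart Treg 2 and 14.3 CPM in heart Tconv 3, where Mb had 1.30 and 2.55 CPM, and both genes were at 0 in every library outside heart. Myl2 had 4.47 CPM in heart Tconv 3 and was at 0 outside heart. Other markers went the other way: Pln reached 6.57 CPM in heart, in heart Tconv 1, below its level in NDLN Tconv 1. Tnni3 had reads only in spleen Treg 3 (0.161 CPM) and spleen Tconv 3 (0.631 CPM). Tnnt2 had reads only in heart Treg 3 (0.0353 CPM) and Myl3 only in heart Tconv 3 (0.626 CPM). Of the others, Ckmt2 was at 0 in every library and Myh6 in all but heart Tconv 3 (0.984 CPM) and spleen Treg 2 (0.0359 CPM). Erythroid markers, 5 genes, reached 29910 CPM in 1 MLN Treg library and 23790 CPM in 1 spleen Treg library, against at most 30.7 CPM in heart. The 4 B cell markers divided the Treg groups as the protein genes and mt-Nd6 did: they summed to 0.0746 to 23.4 CPM in heart Tregs and 31.8 to 99.3 CPM in MLN Tregs, against 242 to 281 CPM in NDLN Tregs and 236 to 462 CPM in spleen Tregs. In Tconvs they did not, with 0 to 47.2 CPM in heart, 0.0509 to 2.14 CPM in NDLN and 0 to 21.9 CPM in spleen. Macrophage markers, 5 genes, summed to at most 122 CPM, in 1 heart Tconv library. The part of these cells in the results was not tested, and in bulk samples fewer cells of a type and less RNA per cell cannot be told apart.

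Reads of the 13 protein genes took a smaller share of the library in T cells of the injured heart than in T cells of spleen and NDLN. In Tregs the share was 0.864%, 2.53% and 2.70% of counts in heart, 1.12%, 1.68% and 2.61% in MLN, 3.77%, 4.08% and 3.87% in NDLN, and 3.21%, 3.09% and 3.84% in spleen. In Tconvs it was 1.22%, 1.26% and 1.92% in heart, 4.91%, 4.74% and 5.68% in NDLN, and 5.61%, 3.69% and 5.49% in spleen. Every heart and MLN library lay below every NDLN and spleen library of its cell type, also the heart and MLN libraries of the larger set. In NDLN the mean share was 3.91 ± 0.157% in Tregs and 5.11 ± 0.501% in Tconvs, and in spleen 3.38 ± 0.407% in Tregs and 4.93 ± 1.08% in Tconvs (SD, n = 3 each). The NDLN libraries of the cell types did not overlap, and those of spleen did.

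**Figure D1:**
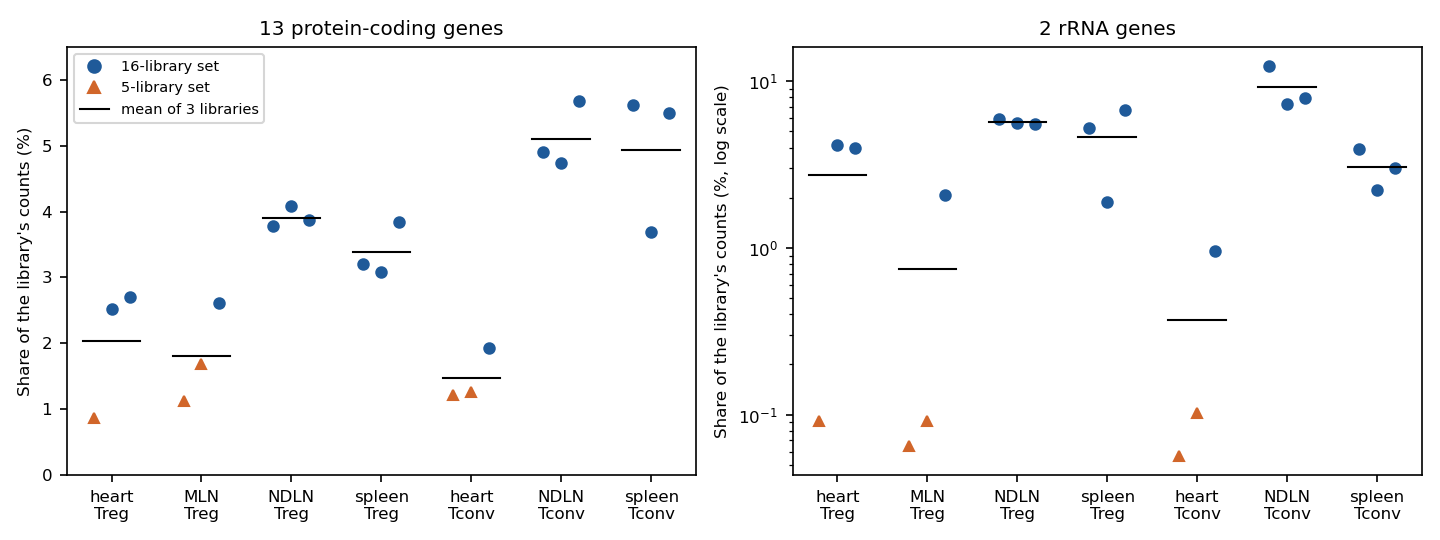
Share of each library's counts taken by the 13 protein genes (left, linear axis from 0) and by the 2 rRNA genes (right, log axis), for the 7 groups of 3 libraries, with circles for the 16-library set, triangles for the 5-library set and a line at the mean. Heart and MLN libraries lie below NDLN and spleen libraries of the same cell type in the left panel, and in the right panel the 5 triangles lie between 0.0567% and 0.102%.

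The rRNA genes followed the library sets more closely than the tissues. Their share was 0.0915%, 4.15% and 3.99% in heart Tregs, 0.0649%, 0.0920% and 2.09% in MLN Tregs, 5.97%, 5.62% and 5.56% in NDLN Tregs and 5.22%, 1.87% and 6.73% in spleen Tregs. In heart Tconvs it was 0.0567%, 0.102% and 0.954%, against 12.3%, 7.35% and 7.96% in NDLN Tconvs and 3.93%, 2.22% and 3.01% in spleen Tconvs. All 5 libraries of the smaller set held 0.0567 to 0.102% and all 16 of the larger set 0.954 to 12.3%. For each protein gene read there were 0.0465 to 0.106 rRNA reads in the 5 libraries and 0.496 to 2.50 in the 16. The protein genes' share also differed between the sets, 0.864 to 1.68% in the 5 and 1.92 to 5.68% in the 16, but by much less. Within the larger set, heart Tconv 3 had the lowest share of both kinds.

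Complex I is the entry point for electrons from NADH, and mitochondrial DNA encodes 7 of its subunits, all in its membrane arm. The clearest of them was mt-Nd6. In Tregs its level was 106, 202 and 151 CPM in heart (CPM of single genes are scaled by TMM from here on, those of the markers above are not), against 514, 585 and 558 CPM in NDLN and 458, 487 and 897 CPM in spleen. In Tconvs it was 135, 105 and 148 CPM in heart, against 669.9, 580.0 and 679 CPM in NDLN and 923, 561 and 862 CPM in spleen. All 6 heart libraries, of either set, lay below all 12 NDLN and spleen libraries, and so did the 3 MLN libraries, at 67.4, 172 and 227 CPM. Of these 1 lay below all heart libraries, 1 among them and 1 above.

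Differences between groups were tested with edgeR's quasi-likelihood test over 14996 genes and called at a Benjamini-Hochberg adjusted p under 0.05. A filter on low counts kept 26 mitochondrial genes, all 13 protein and 2 rRNA genes and 11 tRNA genes. In heart Tregs against spleen Tregs 1 of the 26 was called, mt-Nd6, where 0.0533% of all genes were called lower (8 genes). It fell to 153 ± 48.0 CPM in heart Tregs, against 614 ± 246 CPM in spleen Tregs (SD, n = 3 each), a log2 fold change of -2.01 (SE 0.38, edgeR adjusted p = 0.0316). Heart Tregs against NDLN Tregs also gave 1 call, mt-Nd6 again, where 0.213% of all genes were called lower. The NDLN level was 552 ± 35.8 CPM and the log2 fold change -1.85 (SE 0.38, edgeR adjusted p = 0.0263). These comparisons share the heart libraries. In the larger set alone the log2 fold changes were -1.80 and -1.62 and the edgeR adjusted p-values 0.0504 and 0.0502, just above the threshold, and with the library set as a term in the model they were -1.83 and -1.67, with adjusted p = 0.0394 and 0.0320. The call against spleen was also lost without any 1 of the 3 heart Treg or 3 spleen Treg libraries or without heart Tconv 1, and that against NDLN without heart Treg 1, heart Treg 3, NDLN Treg 2 or NDLN Treg 3.

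The other 12 protein genes of heart Tregs were not called, although all 13 had a log2 fold change below 0 in both comparisons, as 50.3% and 46.6% of all genes had. Their median was -1.08 against spleen and -1.62 against NDLN, beside medians of all genes of -0.02 and 0.00. At an unadjusted p under 0.05 in edgeR stood 5 and 9 of the 13, beside 7.38% and 8.82% of all genes that were lower at that p. The heart libraries lay below all others for 6 and 10 of the 13, beside 8.83% and 11.1% of all genes. In DESeq2 2 and 8 of the 26 genes were called lower, beside 5.71% and 6.4% of all genes, so the count against spleen was near the background. In limma-voom they were 2 and 3, beside 1.14% and 1.53%.

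In Tconvs more of the genes passed. In heart Tconvs against NDLN Tconvs 9 of 26 were called lower, beside 1.34% of all genes: mt-Nd1, mt-Nd2, mt-Nd3, mt-Nd4, mt-Nd5 and mt-Nd6 of complex I, mt-Cytb of complex III, mt-Co1 of complex IV and mt-Atp6 of ATP synthase. In heart Tconvs against spleen Tconvs 4 of 26 were called lower, beside 0.167% of all genes: mt-Nd2, mt-Nd5, mt-Nd6 and mt-Cytb. These comparisons share the heart Tconv libraries. None was called higher. The heart libraries lay below all others for 12 of the 13 protein genes against NDLN and 11 against spleen, beside 8.06% and 9.97% of all genes. At an unadjusted p under 0.05 in edgeR stood 13 and 12 of the 13, all lower, beside 6.03% and 5.43% of all genes. DESeq2 called 16 and 12 of the 26 lower, beside 5.49% and 4.08% of all genes. In limma-voom 9 and 3 were called, beside 1.7% and 0.333%, with 5 of the 9 and 2 of the 4 edgeR calls among them. The median log2 fold change of the 13 was -2.47 against NDLN and -2.04 against spleen, beside 0.48 and 0.27 for all genes tested, so the median gene was itself higher in the heart Tconvs.

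**Figure D2:**
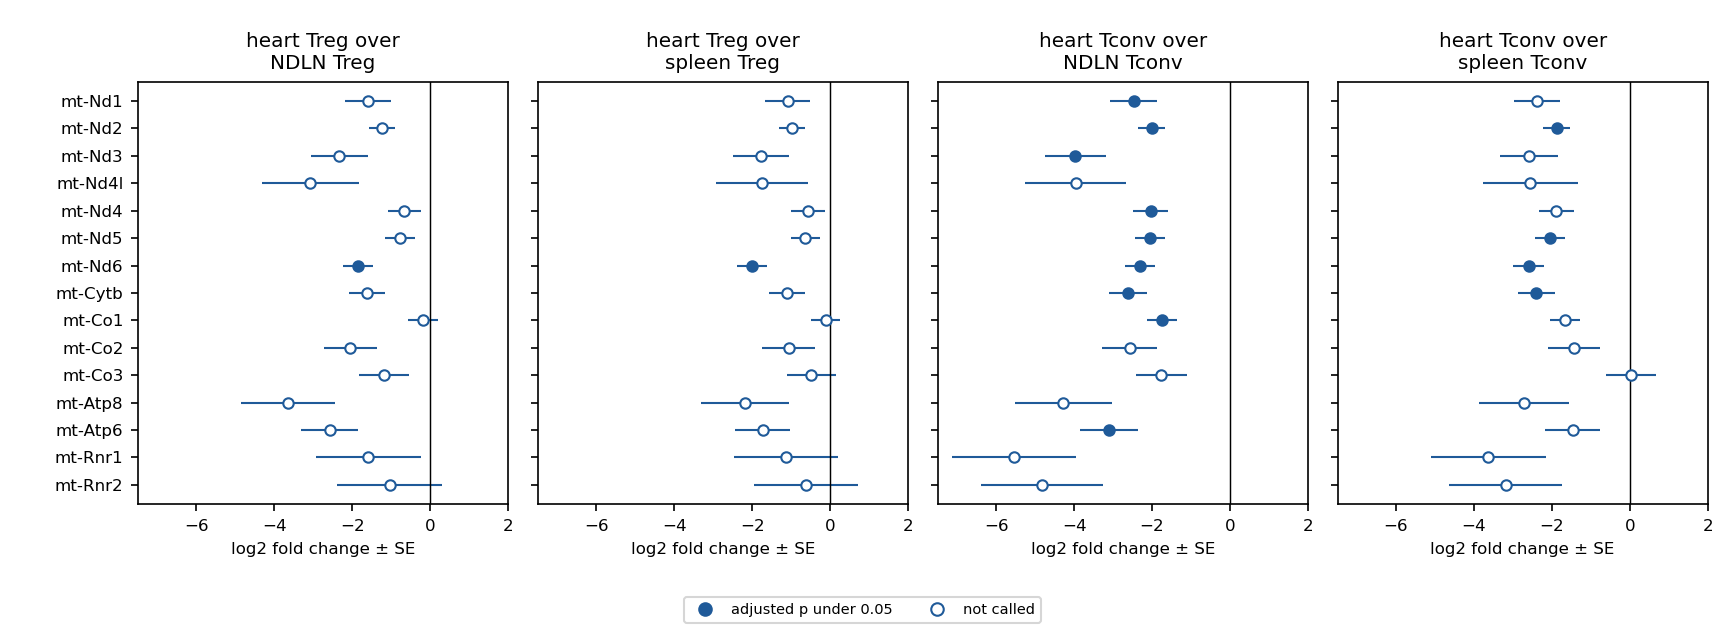
Log2 fold change, with its SE as a bar, of the 13 protein and 2 rRNA genes in heart Tregs over NDLN and spleen Tregs and in heart Tconvs over NDLN and spleen Tconvs, with filled points for genes called by edgeR at an adjusted p under 0.05. A single gene, mt-Nd6, is filled in each Treg panel, 9 in the panel against NDLN Tconvs and 4 in that against spleen Tconvs, and the rRNA genes have the longest bars, with SEs of 1.34 to 1.60.

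Of complex I in Tconvs, mt-Nd6 fell to 129 ± 21.99 CPM in heart Tconvs, against 643 ± 54.7 CPM in NDLN Tconvs (log2 -2.32, SE 0.39, edgeR adjusted p = 0.00433) and 782 ± 194 CPM in spleen Tconvs (log2 -2.60, SE 0.39, edgeR adjusted p = 0.00520). For mt-Nd2 the level was 506, 502 and 402 CPM in heart Tconvs, against 1820, 1635 and 2237 CPM in NDLN Tconvs and 1687, 1222 and 2279 CPM in spleen Tconvs. Heart Tconv 3, of the larger set, was the lowest library here, so this gene did not follow the library sets within the group. Its log2 fold change was -2.01 against NDLN (SE 0.34, edgeR adjusted p = 0.00505) and -1.88 against spleen (SE 0.34, edgeR adjusted p = 0.0174). The level of mt-Nd5 was 621, 864 and 920.5 CPM in heart Tconvs, against 3526, 3324 and 3150 CPM in NDLN Tconvs and 5248, 2162 and 2500 CPM in spleen Tconvs, with no overlap. It fell by 2.06 on the log2 scale against NDLN (edgeR adjusted p = 0.00798) and by 2.04 against spleen (edgeR adjusted p = 0.0211).

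Of the remaining complex I genes, mt-Nd1, mt-Nd3 and mt-Nd4 fell against NDLN Tconvs, by 2.47, 3.97 and 2.03 on the log2 scale (edgeR adjusted p = 0.0285, 0.0100 and 0.0175). Against spleen their log2 fold changes were -2.38, -2.58 and -1.88 (edgeR adjusted p = 0.0715, 0.109 and 0.0530), and whether the comparisons differ was not tested. The rarest, mt-Nd4l, had 0.809 to 5.59 CPM in heart Tconvs and 38.2 to 50.9 CPM in NDLN Tconvs, did not overlap and was not called (edgeR adjusted p = 0.109).

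The single complex III gene, mt-Cytb, encodes the subunit that holds both quinone sites. It had 2355, 2744 and 5475 CPM in heart Tconvs, against 18450, 20550 and 26260 CPM in NDLN Tconvs and 21560, 12530 and 21680 CPM in spleen Tconvs. Every heart library was below every other one, and heart Tconv 3, of the larger set, was the highest of the heart. The log2 fold change was -2.63 against NDLN (SE 0.48, edgeR adjusted p = 0.00718) and -2.40 against spleen (SE 0.48, edgeR adjusted p = 0.0277). Over 30 repeats with another setting or 1 library left out, the call against NDLN was lost in 1 and that against spleen in 7. In the least favourable repeat each call was far from the threshold. In Tregs mt-Cytb had 1705, 6655 and 8402 CPM in heart, against 14560, 19020 and 18120 CPM in NDLN and 12080, 9652 and 14240 CPM in spleen. The heart libraries did not overlap the others but gave no call (log2 -1.62 and -1.10, edgeR adjusted p = 0.126 and 0.413). With the library set as a term the log2 fold change against NDLN Tregs was -1.37, with an edgeR adjusted p of 0.0317. In the larger set alone mt-Cytb was not called against NDLN Tregs.

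Complex IV passes electrons to oxygen, and mt-Co1 encodes its catalytic subunit. In Tconvs it had 3596, 3768 and 6806 CPM in heart, against 17410, 13200 and 16980 CPM in NDLN and 18960, 11150 and 14470 CPM in spleen. In Tregs it had 3144, 11800 and 11780 CPM in heart, against 10790, 9740 and 9834 CPM in NDLN and 9925, 9225 and 9783 CPM in spleen. The Tconv groups did not overlap, while in Tregs 1 heart library lay below and 2 above all those of NDLN and spleen. The gene was called lower in heart Tconvs against NDLN Tconvs, a call lost in 4 of 30 repeats with another setting or 1 library left out. The log2 fold change was -1.75 there (SE 0.39, edgeR adjusted p = 0.0186) and -1.65 against spleen Tconvs (SE 0.39, edgeR adjusted p = 0.0530). In heart Tregs it was -0.18 against NDLN (SE 0.38) and -0.11 against spleen (SE 0.38), not called (edgeR adjusted p = 0.911 and 1.00). The difference between these heart effects, Tregs minus Tconvs, was 1.56 against NDLN (SE 0.54) and 1.54 against spleen (SE 0.54) on the log2 scale, with edgeR adjusted p = 0.385 and 0.596, the lowest of the 26 genes in either test. Of the 26, 0 passed in either, and 3 had an unadjusted p under 0.05 in each, mt-Co1, mt-Nd4 and mt-Nd5, beside 9.94% of all genes against NDLN and 7.5% against spleen, which is near the background.

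The other complex IV genes, mt-Co2 and mt-Co3, were not called in any comparison, and in heart Tconvs against spleen Tconvs mt-Co3 had a log2 fold change of 0.04 (SE 0.63). Of the ATP synthase genes, which form the proton channel and its neighbour, mt-Atp6 had 108, 103 and 112 CPM in heart Tconvs, against 597, 251 and 1952 CPM in NDLN Tconvs. These did not overlap, and it fell by 3.12 on the log2 scale (SE 0.75, edgeR adjusted p = 0.0256), with NDLN Tconv 3 far above the other two. Without NDLN Tconv 3 its log2 fold change was -1.98 and it was not called, nor was it without any 1 of the 3 heart Tconv libraries. Its neighbour mt-Atp8 had 3.01, 2.50 and 10.7 CPM in heart Tconvs, against 80.1, 22.8 and 211 CPM in NDLN Tconvs (log2 -4.28, SE 1.24, edgeR adjusted p = 0.0679).

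The library set bears on the Tconv result, since 2 of the 3 heart Tconv libraries belong to the smaller set and no NDLN or spleen library does. In the larger set alone, where heart Tconv 3 is the only heart Tconv library and its spread is taken from the other groups, 3 of the 9 calls against NDLN were kept: mt-Cytb (log2 -2.01, edgeR adjusted p = 0.0213), mt-Nd4 (log2 -1.58, adjusted p = 0.0480) and mt-Co1 (log2 -1.24, adjusted p = 0.0484). Of the 4 calls against spleen 0 were kept. With the set as a term, mt-Nd2, mt-Nd6 and mt-Cytb stayed called against NDLN and mt-Nd6 against spleen (log2 -2.15, edgeR adjusted p = 0.0433). Both rRNA genes were called against NDLN in that fit and in none of the 9 comparisons of the fit without the term. Without heart Tconv 1 there were 4 calls against NDLN and 1 against spleen, and without heart Tconv 2 there were 4 and 0. Without spleen Tconv 1 or spleen Tconv 3 there was 1 against spleen, mt-Nd6, and without MLN Treg 1, heart Treg 1 or heart Tconv 3 there were 7.

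**Figure D3:**
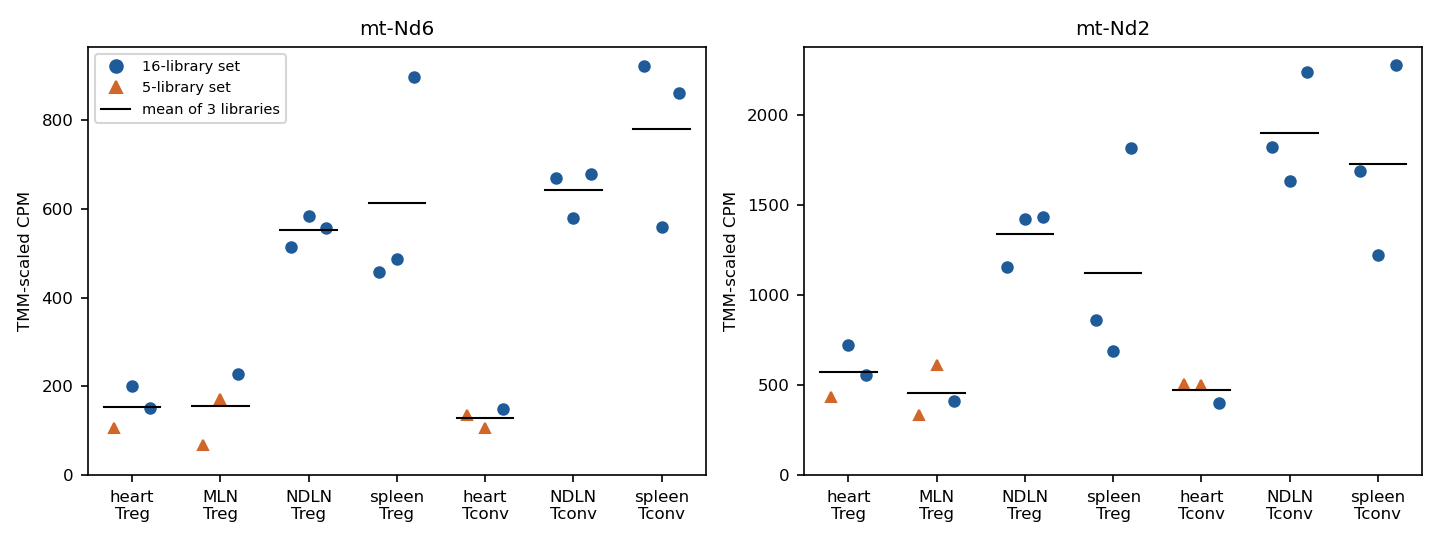
TMM-scaled CPM of mt-Nd6 (left) and mt-Nd2 (right) in every library of the 7 groups, on linear axes from 0, with circles for the 16-library set, triangles for the 5-library set and a line at the mean. For mt-Nd6 the heart and MLN libraries lie between 67.4 and 227 CPM and those of NDLN and spleen between 458 and 923 CPM. For mt-Nd2 circles and triangles of the heart mix.

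The remaining comparisons gave no called mitochondrial gene. In heart Tregs against MLN Tregs 0 of 26 were called, beside 0.02% of all genes called lower, and the median of the 13 was 0.18. In heart Tregs against heart Tconvs 0 were called, beside 0.02% of all genes, with a median of 0.28. Unadjusted p-values under 0.05 in edgeR numbered 3 of 26 in each, near the 9.58% and 7.81% of all genes. DESeq2 called 0 in both, beside 5.06% and 4.43% of all genes called lower, and limma-voom 0, beside 0.874% and 0.914%.

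In MLN Tregs against NDLN Tregs 0 of 26 were called, where 0.0% of all genes were called lower (0 of 14996). Here the median of the 13 was -1.56, and the MLN libraries lay below all those of NDLN for 9 of them, beside 7.2% of all genes. In edgeR 13 of 26 had an unadjusted p below 0.05, beside 9.66% of all genes. DESeq2 called 7 lower, beside 1.8% of all genes, and limma-voom 0, beside 0.06%. The lowest edgeR adjusted p of the 13 was that of mt-Nd6, 0.188 (log2 -1.83, SE 0.38). In spleen Tregs against spleen Tconvs 0 were called, beside 0.00667% of all genes, and in NDLN Tregs against NDLN Tconvs 0, beside 0.02%. Of the 13, 12 and 13 had a log2 fold change below 0, with medians of -0.63 and -0.70. At an unadjusted p under 0.05 stood 0 and 2 of 26 in edgeR, beside 7.33% and 11.6% of all genes. DESeq2 called 0 in both, beside 1.77% and 2.88% of all genes called lower, and limma-voom 0, beside 0.173% and 0.233%.

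The rRNA genes encode the RNA of the small (mt-Rnr1) and large (mt-Rnr2) subunit of the mitochondrial ribosome, and they were not called in any of the 9 comparisons. The level of mt-Rnr2 was 681, 38470 and 38200 CPM in heart Tregs, against 386, 694 and 8183 CPM in heart Tconvs, 54210, 53850 and 50650 CPM in NDLN Tregs and 46740, 15060 and 57450 CPM in spleen Tregs. In MLN Tregs it ranged from 420 to 16810 CPM, with a median of 674 CPM. The libraries under 1000 CPM are those of the smaller set: heart Treg 1, heart Tconvs 1 and 2, and MLN Treg 1 and 2. The heart Treg and heart Tconv libraries overlapped. The log2 fold change was 3.06 in heart Tregs over heart Tconvs (SE 1.44, edgeR adjusted p = 0.601) and -1.04 in heart Tregs over NDLN Tregs (SE 1.34, edgeR adjusted p = 0.811). In heart Tconvs over NDLN Tconvs, at 115700, 70610 and 77260 CPM, it was -4.83 (SE 1.56, edgeR adjusted p = 0.120), and for mt-Rnr1 -5.54 (SE 1.60, edgeR adjusted p = 0.0798). The reads of mt-Rnr2 were 3.47 to 8.79 times those of mt-Rnr1 in the libraries.

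The tRNA genes had few reads, 22451 in all, against 15397744 for the protein genes and 18136262 for the rRNA genes. How far the library preparation captures such short RNAs was not tested, so these counts need not follow the tRNA levels of the cells. For the proline tRNA, mt-Tp, the level was 8.84, 24.3 and 27.1 CPM in heart Tregs, 7.33, 29.5 and 12.3 CPM in MLN Tregs, 43.4, 48.6 and 82.6 CPM in NDLN Tregs and 24.5, 20.1 and 67.8 CPM in spleen Tregs. In heart Tconvs it was 4.32, 18.7 and 12.3 CPM, against 50.2, 46.1 and 44.5 CPM in NDLN Tconvs and 35.8, 17.8 and 59.7 CPM in spleen Tconvs. It was the only tRNA gene with reads in the 5 libraries of the smaller set and was not called in any comparison (edgeR adjusted p = 0.217 in heart Tconvs over NDLN Tconvs).

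The other 21 tRNA genes had 0 reads in all 5 libraries of the smaller set, where a count of 0 allows up to 0.150 to 0.175 CPM (3 counts per library, counting error only). Limits of this kind are not scaled by TMM. In the 16 libraries 8 to 14 tRNA genes had reads. The asparagine tRNA, mt-Tn, whose sequence stands above, had 1.53 to 24.5 CPM in the 16. The other 9 that passed the filter were mt-Tl1, mt-Tq, mt-Tm, mt-Tw, mt-Ta, mt-Tc, mt-Ty, mt-Te and mt-Tt, with 115 to 950 reads each over all libraries, and none was called in any comparison. Of the 11 that did not pass, mt-Tf and mt-Td had 0 reads in all 21 libraries, which allows up to 0.106 to 0.207 CPM per library, and 9 had 1 to 54 reads in all.

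Set against each other per kilobase, the genes of the circle were counted very unequally. The median over the 21 libraries was 24140 CPM per kilobase for mt-Rnr2, 10560 for mt-Cytb, 6365 for mt-Co1, 5977 for mt-Nd1 and 5778 for mt-Rnr1. It was 1274 CPM per kilobase for mt-Nd4, 1185 for mt-Nd5, 939 for mt-Nd6 and 829 for mt-Nd2. At the low end stood mt-Atp6 with 228, mt-Co2 with 172, mt-Co3 with 149, mt-Nd3 with 95.8, mt-Atp8 with 66.4 and mt-Nd4l with 30.5.

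The balance among the 13 protein genes differed between libraries of heart and those of NDLN and spleen. Reads of mt-Co1 made up 44.0%, 44.1% and 40.6% of the 13 in heart Tregs, 40.2%, 39.2% and 32.5% in MLN Tregs, 27.1%, 20.8% and 22.7% in NDLN Tregs and 29.5%, 32.0% and 24.6% in spleen Tregs. In heart Tconvs they made up 37.8%, 36.3% and 36.2%, against 30.8%, 24.2% and 23.9% in NDLN Tconvs and 29.0%, 30.3% and 24.1% in spleen Tconvs. All 6 heart libraries, of either set, lay above all 12 of NDLN and spleen, and so did all MLN Treg libraries. The share of mt-Cytb ran the other way, with 23.8 to 29.2% in the 6 heart libraries and 32.7 to 41.9% in the 12 of NDLN and spleen. For this gene MLN Treg 1 and 2 also lay below the NDLN and spleen libraries, and MLN Treg 3 lay among them. The share of mt-Nd1 was 7.58 to 19.8% in heart libraries and 17.0 to 23.7% in those of NDLN and spleen, which overlap. These shares are a description, with no test, and they sum to a whole, so a gene's share falls when another's rises.

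**Figure D4:**
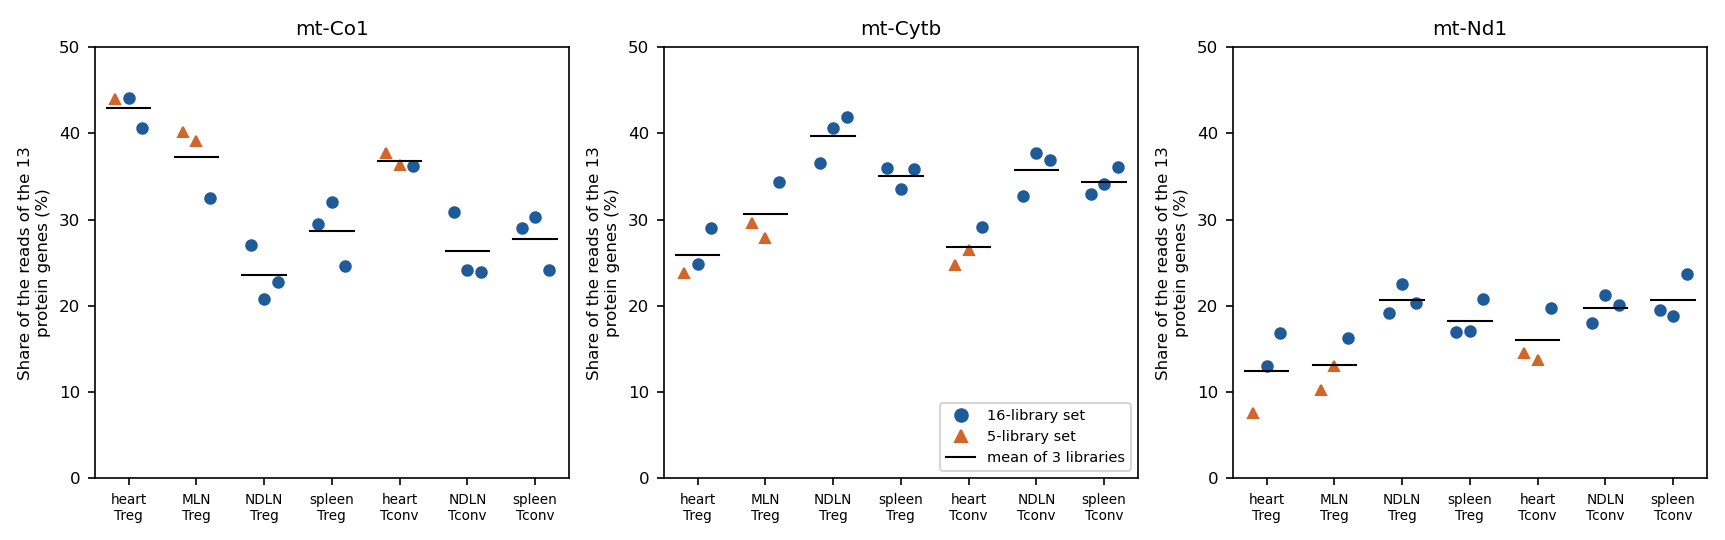
Share of the reads of the 13 protein genes taken by mt-Co1 (left), mt-Cytb (middle) and mt-Nd1 (right) in every library, in percent on linear axes from 0, with circles for the 16-library set, triangles for the 5-library set and a line at the mean. For mt-Co1 all 6 heart libraries lie above all NDLN and spleen libraries, and for mt-Cytb below them.

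The genes with the lowest counts per kilobase were mostly those that the nucleus holds in identical form. Of the nuclear transcripts of GENCODE M21, 15 matched mitochondrial DNA with at least 90% identity over at least 80% of their length, and 12 of them had reads. A block on chromosome 1 (minus strand) holds Gm10925 (copy of mt-Atp6, 100% identical), Gm28437 (mt-Co3, 100%), Gm28661 (mt-Co2, 100%), Gm29216 (mt-Co1, 99.8%) and Gm28439 (mt-Nd4, 100%), the 5 copies with the most reads. Of the 50-base windows of the mitochondrial gene, 100% in mt-Co2, 99.9% in mt-Co3, 99.5% in mt-Atp6, 98.8% in mt-Nd4l and 98.0% in mt-Nd3 occur letter for letter in a nuclear transcript. The value was 62.2% in mt-Nd4, 51.1% in mt-Co1, 8.19% in mt-Nd2, 7.61% in mt-Nd5 and 0 in mt-Nd1, mt-Nd6, mt-Cytb, mt-Atp8 and the rRNA genes. The low count of mt-Atp8 came with no such window, but the search covered annotated transcripts only. The interval between Gm28661 and Gm10925 (chr1:24614651-24614885) has the same length as that between their matches (chrM:7693-7927), which holds most of mt-Atp8. This interval was not searched, so whether it holds a copy of mt-Atp8 was not tested.

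For some of the genes, reads were assigned to the copy in numbers near those of the gene. Of the reads of gene plus copy, the copy took 58.1% for mt-Atp6, 58.2% for mt-Co3, 42.1% for mt-Co2 and 38.8% for mt-Nd4l (copy Gm10222), but 1.15% for mt-Co1 and 0.878% for mt-Nd4. The copies Gm29216 and Gm28439 of these last genes have 492 and 876 bases, against 1545 in mt-Co1 and 1378 in mt-Nd4. For mt-Nd3 the copy Gm28438, 99.7% identical, took 48.4 to 65.7% in the 5 libraries of the smaller set and 1.53 to 13.3% in the 16. How reads with several matches were treated is not given in the sources used here, so the levels of mt-Atp6, mt-Co2, mt-Co3, mt-Nd3 and mt-Nd4l are uncertain. Whether the same holds for mt-Atp8 was not tested. With the copies of at least 99% identity added to their genes, a check chosen after seeing the data, each comparison gave the same number of called genes and kept every call. Even with its copy mt-Co3 had 174700 counts per kilobase over all libraries, against 2967000 for mt-Co1 with Gm29216.

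**Figure D5:**
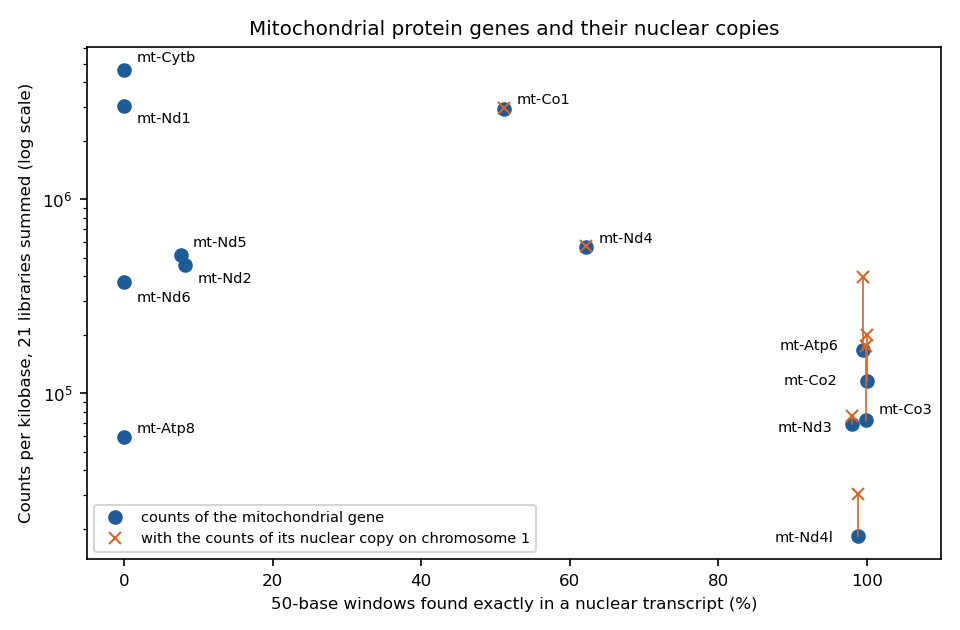
Counts per kilobase of the 13 protein genes, summed over the 21 libraries (log axis), against the percentage of the gene's 50-base windows found exactly in a nuclear transcript. Circles are the mitochondrial gene alone, and crosses, joined by a line, add the reads of its copy on chromosome 1: the 5 genes at 98.0 to 100% lie below mt-Nd4 and mt-Co1 with and without the copy.

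The nuclear genes that copy, transcribe, process and translate mitochondrial DNA gave few calls. Of 54 tested from a list of 56, 1 was called in any of the 9 comparisons, Ssbp1, which coats single-stranded mitochondrial DNA during copying. The call was lower in heart Tconvs against NDLN Tconvs, where 1.34% of all genes were called lower, so the count is near the background. Ssbp1 had 73.4, 33.7 and 95.5 CPM in heart Tconvs, against 327, 356 and 417 CPM in NDLN Tconvs, with no overlap (log2 -2.44, SE 0.58, edgeR adjusted p = 0.0252). In heart Tregs it had 14.3, 117 and 61.6 CPM, against 204, 406 and 425 CPM in NDLN Tregs (log2 -2.43, SE 0.58, edgeR adjusted p = 0.0673). The packaging and transcription factor gene Tfam had 42.1 ± 26.2 CPM in heart Tconvs and 162 ± 101 CPM in NDLN Tconvs (SD, n = 3 each, log2 -1.94, SE 0.59, edgeR adjusted p = 0.0829), and in heart Tregs 79.1 ± 18.0 CPM, against 106 ± 65.4 CPM in NDLN Tregs (adjusted p = 0.819).

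The gene of the mitochondrial RNA polymerase, Polrmt, and those of the helicase Twnk and the DNA polymerase Polg were low, at 0 to 15.8, 0 to 14.7 and 0 to 28.9 CPM over the 21 libraries, and were not called. The second transcription factor, Tfb2m, had 67.9 ± 9.69 CPM in heart Tconvs and 20.8 ± 15.1 CPM in NDLN Tconvs (SD, n = 3 each, edgeR adjusted p = 0.477). Of the pair that stabilises mitochondrial mRNA, Slirp had 7.09 ± 2.31 CPM in heart Tregs and 44.5 ± 18.8 CPM in NDLN Tregs (SD, n = 3 each, log2 -2.65, edgeR adjusted p = 0.186), and Lrpprc 16.4 ± 14.4 CPM in heart Tregs and 15.1 ± 19.3 CPM in NDLN Tregs (adjusted p = 1.0). The median log2 fold change of the list was -0.13 in heart over NDLN Tregs and -0.14 in heart over spleen Tregs, beside 0.00 and -0.02 for all genes tested. It was -0.30 in heart over NDLN Tconvs but 0.24 in heart over spleen Tconvs, beside 0.48 and 0.27 for all genes.

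Of the nuclear partners of the same respiratory complexes, 81 were tested from a list of 85. Against NDLN, 67 had a log2 fold change below 0 in heart Tregs and 65 in heart Tconvs, beside 46.6% and 39.1% of all genes, with medians of -0.84 and -0.90 beside 0.00 and 0.48. Against spleen it was 65 in heart Tregs and 65 in heart Tconvs, beside 50.3% and 42.4% of all genes, with medians of -0.60 and -1.07 beside -0.02 and 0.27. Against NDLN Tregs 2 were called lower, beside 0.213% of all genes, Uqcrb of complex III (log2 -1.66, edgeR adjusted p = 0.0461) and Ndufs4 of complex I (log2 -1.51, edgeR adjusted p = 0.0428), and against NDLN Tconvs 11, beside 1.34%. Against spleen 0 of 81 were called by edgeR in either cell type, beside 0.0533% (Tregs) and 0.167% (Tconvs) of all genes called lower. At an unadjusted p under 0.05 in edgeR stood 24 in Tregs and 54 in Tconvs, beside 11.7% and 12.5% of all genes. In MLN Tregs against NDLN Tregs 67 of the 81 also had a log2 fold change below 0, beside 43.2% of all genes. The median of the 81 was -0.72 there, beside 0.15 for all genes. Of the 81, 0 were called there, and 37 had an unadjusted p under 0.05 in edgeR, beside 9.66% of all genes.

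A single one of the 81 was called higher, Atp5b, the catalytic beta subunit of ATP synthase, in heart Tconvs over NDLN Tconvs. There 231 of all 14996 genes were called higher, so the count is near the background. Atp5b had 648, 1399 and 774 CPM in heart Tconvs, against 105, 157 and 193 CPM in NDLN Tconvs, with no overlap (log2 2.63, SE 0.63, edgeR adjusted p = 0.0264). Its level moved with the library sets, with 648 to 1467 CPM in the 5 libraries of the smaller set, MLN Tregs among them, and 105 to 774 CPM in the 16. The part of the sets in this call was not tested.

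Likeness to other genes was measured over the 16 libraries of the larger set, on CPM not scaled by TMM. Among 5257 genes outside mitochondrial DNA with at least 20 CPM on average, the highest Spearman rho with the summed CPM of the 13 was that of Rpl26 (0.953), Rpl34 (0.953), Rps15a (0.944), Rpl31 (0.944) and Rps20 (0.941). With the summed rRNA genes it was that of Rpl39 (0.891), the small nuclear RNA Rn7sk (0.885), Rpl39-ps (0.809), Rps12 (0.759) and Rps12-ps3 (0.759). The points share library depth and composition, and the values are a description.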

How the data were processed

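The authors deposited 1 table of read counts per gene, whole numbers that are not normalized, for 49510 genes in 21 libraries, with 0 columns left unused here. HTSeq 0.6.0, HISAT2, CASAVA 1.8.2 and the build mm10 are named in the submitters' processing notes. Which annotation was counted, whether strand was used and how multi-mapped reads were handled were not given in the sources, and these bear on overlapping genes and on genes with nuclear copies. Groups and replicate numbers were taken from the titles.

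From these counts, genes were kept by filterByExpr (minimum count 10, minimum total 15), scaled by TMM and fitted in edgeR 4.0.16 (R 4.3.3) with a coefficient per group over all 21 libraries. The quasi-likelihood test was adjusted over all 14996 genes by Benjamini-Hochberg, and calls are adjusted p-values under 0.05. SE were derived from the fold change and the F statistic. Shares are percent of all counts of a library. The members, lists and tests were chosen with earlier results of these data known. All protein and rRNA genes, the tRNA genes past the filter, the 5 nuclear copies with the most reads, called genes of the list for mitochondrial DNA expression and 7 fixed ones of it were named. Nuclear respiratory genes named with values were chosen after their values were seen. Nuclear copies were found with BLAST 2.17.0 against GENCODE M21 transcripts on GRCm38. DESeq2 1.42.0 and limma 3.58.1 served as alternatives. In simulated counts made like heart Treg against spleen Treg, the test called 0 of 14223 unchanged genes. It called 4 of 100 changed by 2 on the log2 scale and 32 of 100 changed by 6, so genes not called may still differ. The changed genes were drawn from all genes above a least mean count, so the recovery of mitochondrial genes was not measured. Library depth limits each value by counting error, and intervals and floors cover counting error only.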

Additional observations from a re-analysis of the deposited data

How the results depend on the processing

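Counts of called mitochondrial genes kept their direction in every comparison with calls under every alternative run, but not their size. In the order heart over spleen Tregs, heart over NDLN Tregs, heart over spleen Tconvs and heart over NDLN Tconvs, edgeR called 1, 1, 4 and 9. DESeq2 called 2, 8, 12 and 16, limma-voom 2, 3, 3 and 9, and edgeR with no filter on low counts 5, 7, 9 and 13. Of all genes these called lower 5.71%, 6.4%, 4.08% and 5.49% (DESeq2), 1.14%, 1.53%, 0.333% and 1.7% (limma-voom) and 0.332%, 0.569%, 0.63% and 0.969% (no filter), against 0.0533%, 0.213%, 0.167% and 1.34% in the edgeR fit, so calls became more frequent over all genes in DESeq2. With the library set as a term edgeR called 1, 2, 1 and 5, and in the larger set alone 0, 0, 0 and 3. Among comparisons with 0 calls, no filter gave 2 higher in heart over MLN Tregs and 3 higher in heart Tregs over heart Tconvs. It gave 2 lower in NDLN Tregs over NDLN Tconvs and 9 lower in MLN over NDLN Tregs, where DESeq2 gave 7. The share of all genes called is not given beside these no-filter counts. It is also not given for the set term, the larger set alone, the runs with 1 library left out or the replicate block. Whether those counts exceed the background was not tested. Leaving out 1 library at a time gave 0 to 1, 0 to 1, 0 to 7 and 4 to 12 in the same order and 0 in the other 5 comparisons. DESeq2 size factors, library sizes without the mitochondrial genes and nuclear copies added to their genes changed no call of the edgeR fit to uncalled. The cause of these shifts was not tested. Of 63 same-numbered pairs of libraries, 3 had deviations from their group means correlated above 0.1 (range -0.0614 to 0.184). Pairs with different numbers were not compared, so whether a replicate number marks the same animal was not tested. With the number as a replicate block edgeR called 1, 2, 8 and 11, and 0 in the other 5. None of the 15 single-gene calls changed sign: under other settings 108 values kept the call and 27 lost it, and with 1 library left out 276 kept it and 39 lost it. Of the summed shares 5 repeats moved beyond the replicate spread. The shallowest library holds 14515387 counts, which limits what the tRNA genes can show.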
